A study of Mus musculus with 6 samples.

Results

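Hspa5, Hsp90b1, Calr, Pdia4, Dnajb9, Sdf2l1, Herpud1, Xbp1, Manf and Creld2 are 10 genes of the endoplasmic reticulum (ER) chaperone system and the unfolded protein response, picked by symbol from the 53762 gene symbols of the count files. All 10 were found in all 6 libraries and passed the filter on low counts, which kept 15223 genes. The cells were immortalized fibroblasts of mouse embryos (MEFs), which make connective tissue and here divide without limit in culture, kept in high-glucose medium with 10% fetal bovine serum and collected 24 hours after seeding. There were 3 wild-type (WT) libraries and 3 from cells in which PME-1 was knocked out (KO). PME-1, the product of Ppme1, is the enzyme that demethylates the catalytic subunit of the phosphatase PP2A. Groups follow the sample titles, since the genotype cells of KO libraries 2 and 3 read PME-2 and PME-3 knockout. Nothing in the labels says whether the libraries of a group were separate cultures or clones, so the spread between them may be technical.

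Proteins bound for secretion fold in the ER lumen with the help of chaperones and of enzymes that form disulfide bonds. When unfolded proteins build up there, the membrane sensors IRE1 (Ern1), PERK (Eif2ak3) and ATF6 start the unfolded protein response. IRE1 splices Xbp1 mRNA, which then encodes an active transcription factor, ATF6 is cut to release another, and PERK slows translation while it favours translation of ATF4. XBP1 and ATF6 drive genes of chaperones and of ER-associated degradation, the route that returns misfolded proteins to the cytosol for destruction. Fibroblasts put this machinery to use for collagen and other matrix proteins.

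The labels and the data agreed on the targeted gene: Ppme1 averaged 81.9 CPM (read counts relative to library size, scaled by TMM factors) in WT and 17.4 CPM in KO, with adjusted p = 0.000563. Total counts were 34450993 to 44116310 per library, and the 10 genes took 0.409% to 0.54% of them. Xist had 16003 to 18859 counts in WT and 4 to 12 in KO, and Y-linked Ddx3y 0 in WT and 1988 to 3061 in KO, so the sex of the cells and the genotype cannot be told apart here. Of 11 fibroblast markers 10 were tested, with a summed level of 15900 to 21800 CPM in WT and 12900 to 15100 CPM in KO. Col1a1 and S100a4 fell, and Fap was under 1 CPM in every library. Thy1, at 1.03 to 3.47 CPM in WT and 4.58 to 9.36 in KO, and Dcn, at 1.05 to 10 CPM in WT and 12.5 to 63.2 in KO, had every KO library above every WT library without passing in edgeR. The 8 epithelial markers summed to 8.54 to 32 CPM in WT and 127 to 147 CPM in KO, and their part in the results was not tested. Krt18, Krt8 and Cldn4 were higher in every KO library, and Krt5 and Krt14 were at 0. Krt19 overlapped, at 29.5, 7.85 and 5.65 CPM in WT and 29.1, 64.8 and 65.9 CPM in KO. Epcam overlapped too, at 0.194 to 1.18 CPM in WT and 0.469 to 1.09 CPM in KO. So did Cdh1, at 0.111 to 0.436 CPM in WT and 0 to 0.31 CPM in KO. Of the 5 endothelial markers 3 were under 1 CPM in every library and Tek rose. Of the 7 blood markers 6 were under 1 CPM in every library, 4 of them at 0, and of the 6 markers of antibody-secreting cells 5 were, Jchain at 0, while Sdc1 fell. In bulk RNA, fewer cells of a type and less RNA per cell cannot be told apart.

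Library 1 of each genotype differed from libraries 2 and 3 of that genotype in a large share of genes. Over all tested genes, the deviations of WT 1 and KO 1 from their group means had a correlation of -0.51, as a description across genes, which are not independent. Of the 15223 genes, 1127 passed an adjusted p of 0.05 in edgeR. Without WT 1 and KO 1, 7408 of 15449 passed, so each result below is also given by library number. In that setting the difference between genotypes cannot be told apart from any other difference between libraries 2 and 3 of the KO cells and libraries 2 and 3 of the WT cells. The libraries left out are those that differed in these same data, so adjusted p values of that setting are a description.

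None of the 10 genes passed the adjusted threshold of edgeR between KO and WT, although the 95% intervals of Sdf2l1 and Herpud1, given below, lay above 0. With edgeR 0 of 10 passed, against 7.4% of all tested genes (3.55% higher and 3.86% lower in KO), and 2 had an unadjusted p under 0.05, Sdf2l1 and Herpud1, where 22.2% of all genes did. DESeq2 called 1 member, Sdf2l1, against 15.8% of all genes, and limma-voom called 0, against 7.74%. The log2 fold changes (KO against WT) ran from -0.19 to 0.62 with a median of 0.18, beside a median of 0.01 over all genes, and 7 of the 10 were positive. Every KO library lay above every WT library for 2 genes, Sdf2l1 and Herpud1, and Creld2 joined them under the other 3 scalings, where 14.6% of all genes behaved so with TMM factors. For 0 of the 10 did every KO library lie below every WT library, against 15.4% of all genes. The plot of levels by library shows all 60 values, and the paragraphs below take the genes by role.

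**Figure D1:**
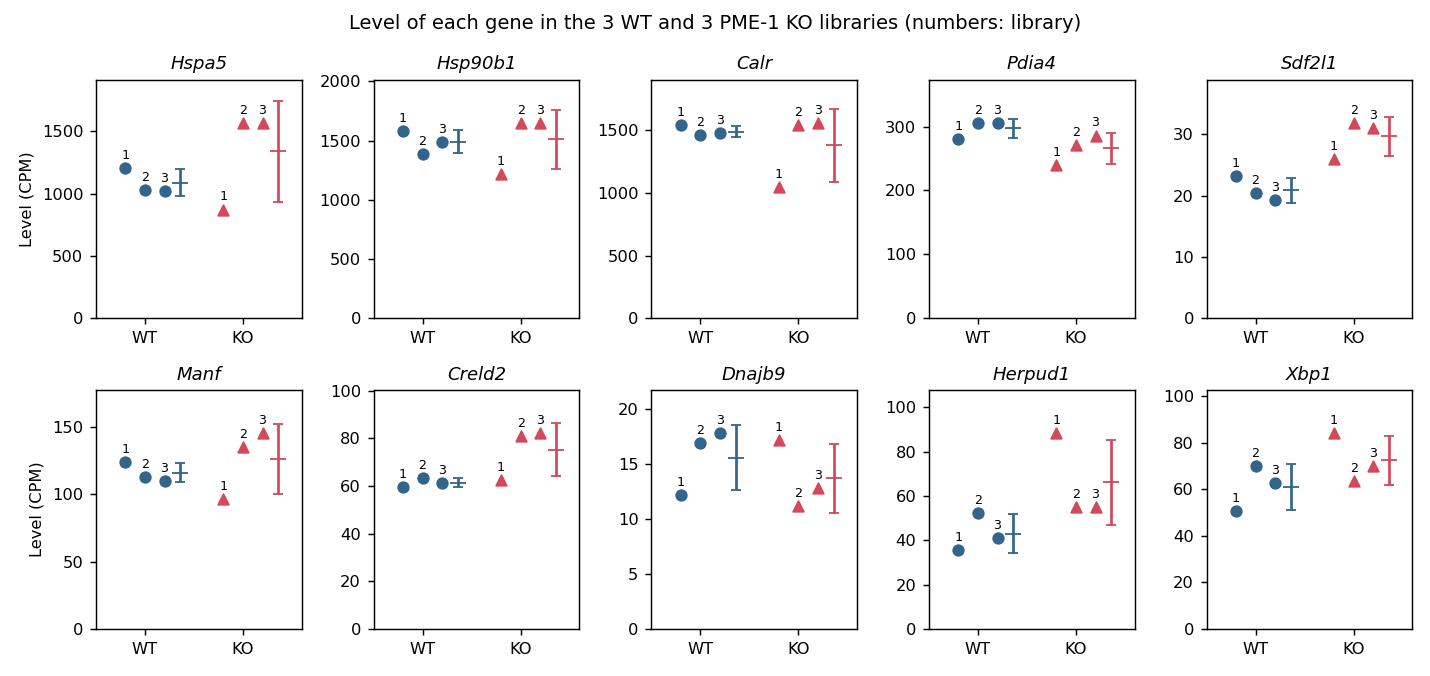
Level of each of the 10 genes in CPM (linear axis from 0) in WT libraries (circles) and KO libraries (triangles), each point labelled with its library number; the bar beside each group is mean ± SD (n = 3). KO 1 lies below KO 2 and KO 3 for the 7 genes from Hspa5 to Creld2 and above them for Dnajb9, Herpud1 and Xbp1.

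Several of these genes are textbook targets of ATF6 and XBP1, which bind known DNA elements, so the promoter windows of the genes that hold such an element in full are shown before their values. RefSeq windows on GRCm38.p6, from 250 bases before to 50 bases after the start site, were matched by symbol for 9 of the 10 genes, all but Manf. Capitals mark the ER stress response element (ERSE: CCAAT, then 9 bases of any kind, then CCACG), its variant ERSE-II (ATTGG, 1 base of any kind, then CCACG), the core of the XBP1 element (TGACGTG) and the core of the ATF4 element (TGATGNAA), searched on both strands. An element on the minus strand appears as its reverse complement, and the letters of ERSE and ERSE-II contain those of the CCAAT box and of CCACG. The windows lie at chr2:34771840-34772139 (plus strand) for Hspa5, chr10:86705395-86705694 (minus) for Hsp90b1, chr8:84846882-84847181 (minus) for Calr, chr15:88819396-88819695 (plus) for Creld2 and chr8:94386179-94386478 (plus) for Herpud1. Each is printed 5′ to 3′ on the strand of its gene.
Hspa5 promoter: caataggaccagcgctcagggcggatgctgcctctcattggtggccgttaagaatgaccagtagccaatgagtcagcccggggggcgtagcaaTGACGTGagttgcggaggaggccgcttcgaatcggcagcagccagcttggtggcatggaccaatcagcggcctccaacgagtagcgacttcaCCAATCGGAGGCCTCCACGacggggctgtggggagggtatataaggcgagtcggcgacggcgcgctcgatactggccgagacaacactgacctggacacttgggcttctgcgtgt
Hsp90b1 promoter: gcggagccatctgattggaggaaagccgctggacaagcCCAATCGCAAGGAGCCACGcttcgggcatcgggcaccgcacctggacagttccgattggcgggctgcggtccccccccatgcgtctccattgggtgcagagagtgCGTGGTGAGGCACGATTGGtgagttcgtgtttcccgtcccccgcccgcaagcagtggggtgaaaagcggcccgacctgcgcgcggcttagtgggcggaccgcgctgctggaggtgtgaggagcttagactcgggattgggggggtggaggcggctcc
Calr promoter: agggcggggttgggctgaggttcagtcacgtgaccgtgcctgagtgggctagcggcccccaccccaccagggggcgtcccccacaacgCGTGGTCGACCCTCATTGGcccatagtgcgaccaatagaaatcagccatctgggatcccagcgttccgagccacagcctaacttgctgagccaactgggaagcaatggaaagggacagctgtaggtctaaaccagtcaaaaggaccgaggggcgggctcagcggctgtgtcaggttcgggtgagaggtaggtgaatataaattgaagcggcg
Creld2 promoter: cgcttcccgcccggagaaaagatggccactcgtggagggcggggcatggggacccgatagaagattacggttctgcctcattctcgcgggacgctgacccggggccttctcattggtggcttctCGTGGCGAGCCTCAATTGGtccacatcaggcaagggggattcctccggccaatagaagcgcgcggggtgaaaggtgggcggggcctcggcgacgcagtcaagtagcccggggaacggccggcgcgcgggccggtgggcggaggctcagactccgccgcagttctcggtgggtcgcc
Herpud1 promoter: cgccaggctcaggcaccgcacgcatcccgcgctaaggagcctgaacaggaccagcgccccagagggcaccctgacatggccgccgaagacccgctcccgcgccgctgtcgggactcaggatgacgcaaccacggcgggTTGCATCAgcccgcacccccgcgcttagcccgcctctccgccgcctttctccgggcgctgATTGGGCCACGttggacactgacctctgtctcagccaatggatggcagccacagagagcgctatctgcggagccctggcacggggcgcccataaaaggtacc

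The full ERSE stood in 4 of the 9 windows, those of Hspa5, Hsp90b1 (2 copies), Calr and Creld2, and in 0.119% of the 32851 windows of all genes. Counted from the start site, the Hspa5 copy ran from -65 to -47, those of Hsp90b1 from -212 to -194 and from -107 to -89, that of Calr from -162 to -144 and that of Creld2 from -126 to -108. ERSE-II stood in the Herpud1 window alone among the 9, from -52 to -42, and in 0.0365% of all windows. Herpud1 also held the ATF4 core (3.97% of windows) from -112 to -105 and Hspa5 the XBP1 core (2.01%) from -157 to -151. Pdia4, Dnajb9 and Sdf2l1 held a CCAAT box, as 37.4% of windows did, and the letters CCACG, as 32.8% did, but neither ERSE form in full. The Pdia4 window (chr6:47813463-47813762, minus strand) lay wholly upstream of the GENCODE M21 span of that gene, so its start site is less certain. The Xbp1 window held none of the 6 letter strings searched. A match describes letters in this window and is not a measured binding site.

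Of the 18 tested genes with the full ERSE, 0 passed in edgeR in KO against WT, beside 7.4% of all genes. An unadjusted p under 0.05 was found for 4, beside 22.2% of all genes. In DESeq2 3 passed, beside 15.8%, and in limma-voom 0, beside 7.74%. The counts at unadjusted p and in DESeq2 thus lay near the shares of all genes. The median log2 fold change of the 18 genes was 0.19. Beyond the 4 members, 6 of them belong to the ER lists described further on: Canx, Dnajc3, Derl3, Ero1b, Pdia6 and Syvn1. Their log2 fold changes ran from -0.3 to 0.67 with adjusted p from 0.124 to 0.611 in edgeR. The highest was that of Derl3, which had only 4 to 15 counts per library, and the next was 0.52 for Dnajc3. Of the 9 tested genes with ERSE-II 0 passed in edgeR and 4 had an unadjusted p under 0.05, against 7.4% and 22.2% of all genes. DESeq2 called 2 and limma-voom 1, against 15.8% and 7.74%, and the median was -0.01.

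The major chaperones of the ER lumen were the most abundant of the 10 transcripts. Per kilobase of exon, with exon lengths from GENCODE M21, the WT levels were 519 ± 14.8 CPM per kb for Calr, 370 ± 23.7 for Hsp90b1 and 257 ± 25.4 for Hspa5 (SD, n = 3 here and throughout). Pdia4 followed at 124 ± 5.93 CPM per kb, Creld2 at 45 ± 1.36 and Manf at 32.9 ± 2.1. Sdf2l1, Xbp1 and Herpud1, at 18.9 ± 1.84, 18.8 ± 3.04 and 18.4 ± 3.75 CPM per kb, did not differ beyond their spread, and Dnajb9 was the lowest at 6.13 ± 1.17. In KO the order of the first 4 was the same, at 481 ± 101, 373 ± 62, 316 ± 95.2 and 111 ± 9.94 CPM per kb, but the first 3 no longer stood apart beyond their SDs. Hspa5, Hsp90b1 and Calr together made up 83.6% to 88.1% of the counts of the 10 genes in each library. Dnajb9, with the fewest reads, had 436 to 775 counts per library.

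Hspa5 encodes BiP, the HSP70 chaperone of the ER, which binds nascent chains and also holds the stress sensors inactive. It lies on chromosome 2 (34771970-34777547, plus strand, GENCODE M21 on GRCm38, as for all positions of genes below). Its level was 1210, 1030 and 1020 CPM in WT libraries 1 to 3 and 873, 1570 and 1570 CPM in KO libraries 1 to 3. KO 2 and KO 3 were the highest of the 6 libraries and KO 1 the lowest, so the groups overlapped. The log2 fold change was 0.3 (SE 0.24, 95% interval -0.27 to 0.87, adjusted p = 0.53). On the log2 scale KO 1 was below WT 1 by a difference of -0.47, while the mean of KO 2 and KO 3 was above that of WT 2 and WT 3 by 0.61. Without WT 1 and KO 1 the log2 fold change was 0.61 with adjusted p = 4.27e-07 in edgeR. In that setting 48% of all genes passed, and its adjusted p values, here and for the genes below, are to be read against that share.

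Hsp90b1 encodes GRP94, the HSP90 chaperone of the ER, and lies on chromosome 10 (86690209-86705509, minus strand). Its level was 1580, 1390 and 1490 CPM in WT and 1220, 1650 and 1650 CPM in KO. As for Hspa5, KO 1 was the lowest library and KO 2 and KO 3 the highest. For Hsp90b1 the log2 fold change was 0.01 (SE 0.15, 95% interval -0.35 to 0.38, adjusted p = 0.968), and 0.19 without WT 1 and KO 1 (adjusted p = 0.00521). In the annotation Hsp90b1 shares exon bases with a pseudogene on the other strand, 1810014B01Rik, which had 76 to 164 counts per library, against 47040 to 70132 for Hsp90b1.

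Calr encodes calreticulin, a calcium-binding lectin that folds glycoproteins, and lies on chromosome 8 (84841850-84846934, minus strand). WT libraries were at 1540, 1460 and 1480 CPM and KO libraries at 1050, 1540 and 1560 CPM. KO 1 was below every other library, and KO 2 and KO 3 were within or just above the WT range. The log2 fold change was -0.11 (SE 0.17, 95% interval -0.52 to 0.3, adjusted p = 0.771) and its sign depended on KO 1: it was 0.05 without that library (adjusted p = 0.765) and 0.08 without WT 1 and KO 1 (adjusted p = 0.171). The row of its pseudogene Calr-ps held 0 counts in every library.

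Pdia4 encodes ERp72, a disulfide isomerase, and lies on chromosome 6 (47796141-47813430, minus strand). Its level was 281, 305 and 306 CPM in WT and 240, 271 and 286 CPM in KO. The highest KO library reached only as far as the lower end of the WT range. For Pdia4 the log2 fold change was -0.16 (SE 0.11, 95% interval -0.43 to 0.11, adjusted p = 0.466), with differences of -0.23 within number 1 and -0.13 within numbers 2 and 3. Pdia4 was thus the member of the abundant 4 whose difference had the same sign in both.

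Sdf2l1 encodes a partner of the BiP cycle that works with ER J-proteins, and lies on chromosome 16 (17130138-17132383, minus strand). Its level was 23.2, 20.4 and 19.3 CPM in WT and 26, 31.9 and 31.1 CPM in KO, so every KO library was above every WT library. The log2 fold change was 0.5 (SE 0.14, 95% interval 0.17 to 0.84, unadjusted p = 0.00967), which missed the threshold after adjustment in edgeR (adjusted p = 0.0881). It passed in DESeq2 (adjusted p = 0.013), with upper-quartile factors (0.0497), with library totals as scaling (0.0448) and without WT 1 and KO 1 (0.000266). In the other 12 of 16 alternative settings Sdf2l1 did not pass. Among them were median-ratio factors (adjusted p = 0.0826), limma-voom (0.0853) and the replicate block (0.432). With 1 library left out its adjusted p ran from 0.0563 to 0.307. The difference was 0.16 within number 1 and 0.67 within numbers 2 and 3. Counted against Pdia4 in the same library, which takes no scaling factor, Sdf2l1 was at 0.0827, 0.0669 and 0.0629 in WT and 0.108, 0.118 and 0.109 in KO. This pair was chosen after the values were seen. Pdia4 itself had a log2 fold change of -0.16, which raises the ratio in KO.

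Manf and Creld2 encode small proteins of the ER that are secreted in part under ER stress; Manf is known as a trophic factor and Creld2 as a disulfide isomerase. Manf (chromosome 9, 106838312-106891979, minus strand) was at 124, 113 and 110 CPM in WT and 96.5, 135 and 145 CPM in KO. KO 1 was again the lowest library and KO 2 and KO 3 the highest, and the log2 fold change was 0.12 (SE 0.17, 95% interval -0.28 to 0.51, adjusted p = 0.745), or 0.33 without WT 1 and KO 1 (adjusted p = 0.00141). The annotated span of Manf also overlaps exons of Dcaf1 on the other strand and of Rbm15b on its own, which had 2272 to 4374 and 3430 to 6711 counts per library, and whether the counting used strand is not given in the sources used here. Creld2 (chromosome 15, 88819646-88826683, plus strand) was at 59.6, 63.3 and 61.3 CPM in WT and 62.5, 81.1 and 82 CPM in KO. Here KO 1 fell inside the WT range and KO 2 and KO 3 above it. For Creld2 the log2 fold change was 0.29 (SE 0.13, 95% interval -0.02 to 0.6, adjusted p = 0.253), and it passed without KO 1 (0.41, adjusted p = 0.0499) and without WT 1 and KO 1 (0.39, adjusted p = 0.000636). In the other 14 of 16 alternative settings Creld2 did not pass.

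Dnajb9, Herpud1 and Xbp1 took another order of libraries. Xbp1, the transcription factor of the IRE1 branch (chromosome 11, 5520659-5525893, plus strand), was at 50.5, 70 and 62.7 CPM in WT and 84, 63.4 and 69.9 CPM in KO. WT 1 was the lowest library and KO 1 the highest, and the others lay between. For Xbp1 the log2 fold change was 0.25 (SE 0.16, 95% interval -0.14 to 0.64, adjusted p = 0.44). The difference was 0.74 within number 1 and 0.01 within numbers 2 and 3. Counts per gene do not separate spliced from unspliced Xbp1 mRNA, so they do not measure IRE1 activity.

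Herpud1 encodes a membrane protein of ER-associated degradation that helps to recruit the ubiquitin ligase complex, and lies on chromosome 8 (94386438-94395377, plus strand). Its level was 35.4, 52.5 and 40.9 CPM in WT and 88.2, 54.9 and 55 CPM in KO. Every KO library was above every WT library, but KO 2 and KO 3 only just above WT 2. The log2 fold change of 0.62 was the highest of the 10 (SE 0.24, 95% interval 0.05 to 1.19, unadjusted p = 0.0359, adjusted p = 0.188). The difference was 1.32 within number 1 and 0.25 within numbers 2 and 3, and the log2 fold change was 0.23 without WT 1 and KO 1 (adjusted p = 0.108).

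Dnajb9 encodes ERdj4, a J-protein that serves BiP in degradation and in keeping IRE1 inactive, and lies on chromosome 12 (44205559-44210326, minus strand). WT libraries were at 12.2, 16.9 and 17.8 CPM and KO libraries at 17.2, 11.2 and 12.8 CPM. Within each group library 1 stood on the other side of libraries 2 and 3, low in WT and high in KO. The log2 fold change was -0.19 (SE 0.23, 95% interval -0.73 to 0.35, adjusted p = 0.691). The difference was 0.49 within number 1 and -0.53 within numbers 2 and 3, and without WT 1 and KO 1 the log2 fold change was -0.53 (adjusted p = 0.00824).

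**Figure D2:**
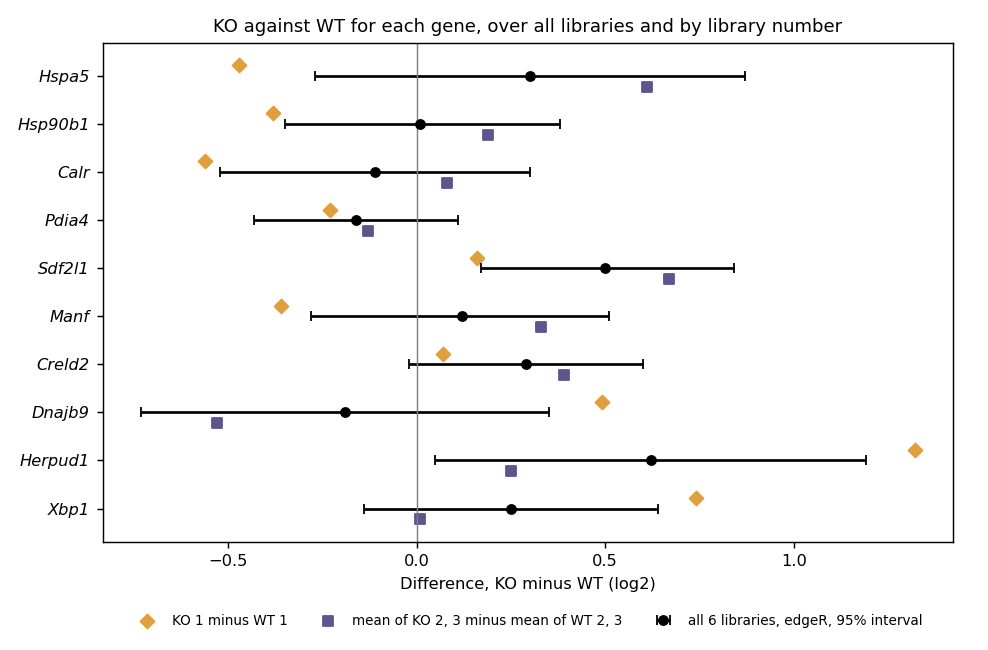
Difference between KO and WT on the log2 scale for each gene: the edgeR log2 fold change over all 6 libraries with its 95% interval (black), KO 1 minus WT 1 (diamonds) and the mean of KO 2 and KO 3 minus the mean of WT 2 and WT 3 (squares). For 5 of the 10 genes, Hspa5, Hsp90b1, Calr, Manf and Dnajb9, diamonds and squares lie on opposite sides of 0.

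Set side by side, the 10 genes fell into a pair of library patterns. KO 1 was below both other KO libraries for 7 genes (Hspa5, Hsp90b1, Calr, Pdia4, Sdf2l1, Manf and Creld2) and above both for the other 3 (Dnajb9, Herpud1 and Xbp1). Among the 28 other ER chaperones described further on, KO 1 was the lowest KO library for 10 and the highest for 16. Whether these orders go with the location of the proteins was not tested. The counts of 7 and 3 among the 10 genes were the same under all 4 scalings. Over all tested genes KO 1 was the lowest KO library in 42.3% and the highest in 43.8%. For 5 genes, Hspa5, Hsp90b1, Calr, Pdia4 and Manf, KO 1 was the lowest of all 6 libraries, where 25.3% of all genes behaved so. Differences within number 1 and within numbers 2 and 3 had opposite signs for 5 of the 10 genes and for 53.9% of all genes.

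Relative to the mean of the 6 libraries on the log2 scale, the mean profile of the 7 genes was 0, -0.09 and -0.09 in WT and -0.25, 0.2 and 0.23 in KO. The mean profile of Dnajb9, Herpud1 and Xbp1 was -0.39, 0.11 and -0.04 in WT and 0.45, -0.12 and 0 in KO. The heat map of profiles shows both. The groups of genes were read from these values, so the profiles are a description and carry no test.

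**Figure D3:**
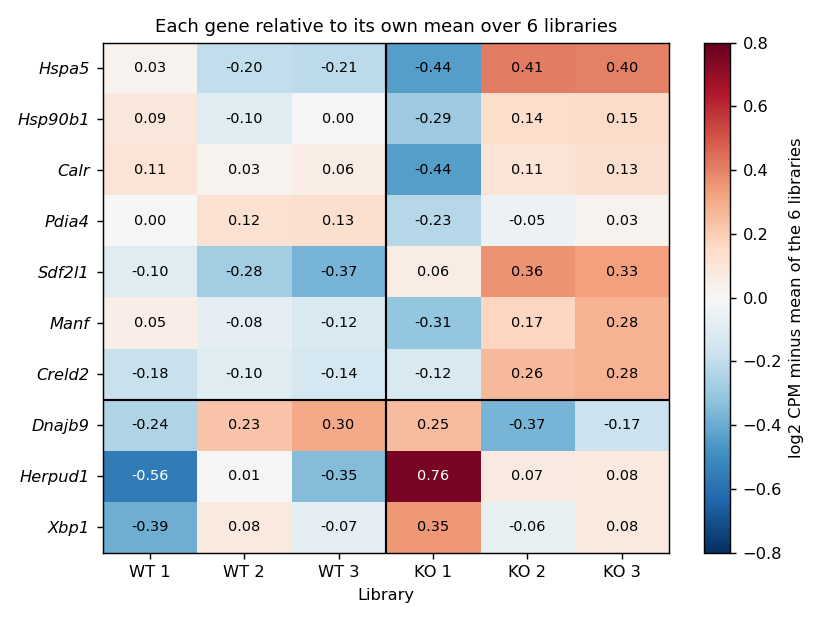
log2 CPM of each gene minus its mean over the 6 libraries (colour and printed value); columns are libraries, the vertical line parts WT from KO and the horizontal line parts the 7 genes with KO 1 below KO 2 and KO 3 from the 3 genes with KO 1 above. The deepest value is -0.56 for Herpud1 in WT 1 and the highest 0.76 for Herpud1 in KO 1.

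Without WT 1 and KO 1, 5 of the 10 genes passed higher in KO (Hspa5, Hsp90b1, Sdf2l1, Manf and Creld2) and 1 lower (Dnajb9). In that setting 23.3% of all genes passed higher and 24.6% lower, 48% in all, so the share of the 10 genes is to be read against that. Calr, Pdia4, Herpud1 and Xbp1 did not pass there, with adjusted p from 0.0699 for Pdia4 to 0.972 for Xbp1.

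Ratios of counts within a library, chosen after the values were seen, show how the chaperones differed among themselves with no scaling factor involved. Each ratio also carries any change of its second gene. Hspa5 counts were 0.787, 0.705 and 0.691 of Calr counts in WT and 0.833, 1.02 and 1 of them in KO, with every KO library above every WT library. Against Pdia4, Hspa5 was at 4.32, 3.38 and 3.35 in WT libraries and at 3.64, 5.8 and 5.47 in KO libraries, where KO 1 fell within the WT range. Against Dnajb9, whose protein serves BiP, Hspa5 ranged from 57.6 to 99.1 in WT and from 50.8 to 141 in KO. Herpud1 was at 0.0292 to 0.051 of Hspa5 in WT and at 0.101 in KO 1, 0.0349 in KO 2 and 0.0351 in KO 3, so only KO 1 left the WT range.

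The genes whose centred log2 profiles lay nearest to these profiles were listed by root mean square difference over the 6 libraries, leaving out genes whose mean was under 5 CPM. Nearest to the mean of all 10, which is almost flat, was Med24 (0.017). Nearest to the profile of the 7 genes with KO 1 lowest among KO libraries were Lrrc14 (0.025), Tfip11 (0.031), Ythdf2 (0.031) and Nsf (0.032). Nearest to the profile of Dnajb9, Herpud1 and Xbp1 were Hps1 (0.037), Rilpl2 (0.039) and Sirt6 (0.039), and Sdf2, the close relative of Sdf2l1, was among the nearest 8 (0.05). Sdf2 was at -0.38, 0.16 and -0.02 in WT libraries and 0.45, -0.11 and -0.11 in KO libraries on this centred scale, and the paralogs Sdf2 and Sdf2l1 stood in different library patterns.

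Outside the 10 genes, 7 lists of ER genes held 153 tested genes, of which 3 rose and 11 fell in KO (9.15%, against 7.4% of all genes), with a median log2 fold change of -0.02. The sensors and transducers of the unfolded protein response gave 0 of 9 passing in edgeR (median -0.02), against 7.4% of all genes. Of the 9, 2 had an unadjusted p under 0.05 and 1 passed in DESeq2, against 22.2% and 15.8%. Ern1 averaged 28.2 ± 2.85 CPM in WT libraries and 33 ± 1.82 in KO libraries, and Eif2ak3 39.5 ± 5.44 and 33.4 ± 2.87 CPM. Atf6 averaged 59.6 ± 7.58 CPM in WT libraries and 72.5 ± 1.21 in KO libraries, every KO library above every WT library, with a log2 fold change of 0.28 and adjusted p = 0.224. Creb3l2 and Creb3l1, ATF6 relatives known for roles in matrix secretion, had log2 fold changes of -0.85 (adjusted p = 0.0764) and -0.68 (adjusted p = 0.292). Creb3l2 passed in DESeq2 (adjusted p = 0.00953), without WT 1 (-1.05, adjusted p = 0.0183) and without WT 1 and KO 1 (-1.19, adjusted p = 1.35e-07). In the other 13 of 16 alternative settings Creb3l2 did not pass. Creb3l1 was at 37.3, 69 and 66.8 CPM in WT and 51.7, 30.3 and 26.2 CPM in KO, so libraries 1 of both groups lay between the rest.

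In the PERK branch list 1 of 12 rose and 0 fell in edgeR (median 0.49), against 3.55% and 3.86% of all genes. An unadjusted p under 0.05 was found for 5, against 22.2%. In DESeq2 4 passed, all higher in KO, against 15.8% of all genes in either direction. For 5 of the 12 every KO library was above every WT library, against 14.6% of all genes. Atf3, a stress-induced transcription factor, went from 7.27, 5.24 and 4.34 CPM in WT to 17.7, 18.6 and 19.5 CPM in KO, with adjusted p = 0.00713, and it passed with each library left out in turn. Atf4, the transcription factor that PERK favours, was at 327, 252 and 238 CPM in WT libraries and 459, 378 and 387 CPM in KO libraries (log2 fold change 0.58, adjusted p = 0.0812). Chac1, which degrades glutathione, Asns, the asparagine synthetase, and Vldlr, a lipoprotein receptor, had log2 fold changes of 1.06 (adjusted p = 0.0858), 0.67 (0.188) and 2.16 (0.0725). Atf4, Chac1 and Vldlr passed in DESeq2 with Atf3, and Vldlr was at 51.3 CPM in KO 1 beside 13.9 and 12.7 CPM in KO 2 and KO 3. Ddit3, the CHOP factor of terminal ER stress, was at 31.3, 32.6 and 28.2 CPM in WT and 43.8, 18.2 and 16.6 CPM in KO (log2 fold change -0.23, adjusted p = 0.779). KO 1 was the highest KO library for 10 of these 12 genes, as for Herpud1, Xbp1 and Dnajb9, where 43.8% of all genes had it so. The list is only named for the PERK branch: PERK activity was not measured, and whether PERK drives these levels was not tested.

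Of 28 other ER chaperones and co-chaperones 5 fell and 0 rose in edgeR (median -0.07), against 3.86% and 3.55% of all genes. An unadjusted p under 0.05 was found for 12, against 22.2%. Every KO library was below every WT library for 8 of the 28 and above for 4, against 15.4% and 14.6%. DESeq2 called 7, against 15.8% of all genes. They were the same 5 and, higher in KO, Dnajc3 and Fkbp11, whose edgeR log2 fold changes were 0.52 (adjusted p = 0.124) and 0.6 (adjusted p = 0.0978). Of the 5, Serpinh1, Ppib and Fkbp10 are known to act on collagen. Serpinh1, which encodes the collagen chaperone HSP47, went from 1550, 1700 and 1620 CPM in WT to 1070, 1060 and 1060 CPM in KO (log2 fold change -0.62, SE 0.1, adjusted p = 0.0185). All KO libraries, KO 1 among them, were alike and below all WT libraries, a different order from that of Hspa5. Ppib, the cyclophilin of collagen folding, fell by 0.83 on the log2 scale, Calu, a calcium-binding protein of the secretory route, by 0.67, and the prolyl isomerase genes Fkbp9 and Fkbp10 each by 0.54. Counted against Serpinh1 in the same library, Hspa5 was at 0.781, 0.604 and 0.631 in WT and at 0.816, 1.49 and 1.48 in KO. This pair was chosen after the values were seen, and the fall of Serpinh1 itself raises the ratio in KO. All 5 calls were lost without WT 2 (adjusted p from 0.1 to 0.128), without WT 3 (0.0992 to 0.136), without KO 2 (0.0915 to 0.118) or without KO 3 (0.0966 to 0.132), and held without WT 1 or without KO 1. Col1a1, the main collagen chain among the fibroblast markers, fell as well (log2 fold change -0.98, adjusted p = 0.0209), and its part in this result was not tested.

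Of 18 tested disulfide isomerases and oxidases 1 rose and 2 fell in edgeR (median -0.05), against 3.55% and 3.86% of all genes. DESeq2 called the same 3, against 15.8%, and 5 had an unadjusted p under 0.05, against 22.2%. Every KO library was below every WT library for 5 of the 18 and above for 1, against 15.4% and 14.6%. Ero1a, the oxidase that recharges disulfide isomerases, went from 60.3, 55.4 and 57.4 CPM in WT to 205, 124 and 117 CPM in KO (2.58-fold higher, adjusted p = 0.017), with KO 1 the highest library. Its main partner P4hb was at 884 to 1110 CPM in WT and 951 to 1140 CPM in KO and did not pass, and the ratio of Ero1a to P4hb counts was 0.0498 to 0.0682 in WT and 0.12 to 0.179 in KO. Pdia5 went from 72.8, 78.8 and 75 CPM in WT to 42.8, 38.8 and 42.6 CPM in KO (log2 fold change -0.87, adjusted p = 0.00451) and passed with each library left out in turn. Sumf2, a relative of the sulfatase-modifying enzyme, fell by 0.58 on the log2 scale (adjusted p = 0.0475). The Ero1a call was lost without WT 2 (adjusted p = 0.0839) or WT 3 (0.0894), and the Sumf2 call without any library except WT 1, with adjusted p of 0.184 without WT 2, 0.187 without WT 3, 0.0755 without KO 1, 0.133 without KO 2 and 0.181 without KO 3.

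Genes of ER-associated degradation, which work beside Herpud1, gave 0 of 28 passing in edgeR (median -0.01), against 7.4% of all genes. Of the 28, 4 had an unadjusted p under 0.05 and 1 passed in DESeq2, against 22.2% and 15.8%. The lowest p among them belonged to Herpud2, the paralog of Herpud1, with 20.5 ± 0.919 CPM in WT libraries and 28.1 ± 4.8 in KO libraries (log2 fold change 0.46, adjusted p = 0.141). Derl2, a channel component, averaged 36.4 ± 1.38 CPM in WT libraries and 43.8 ± 0.262 in KO libraries (adjusted p = 0.171, and 0.0381 in DESeq2). Os9, a lectin of the same route, had a log2 fold change of -0.54 (adjusted p = 0.16).

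Of 34 translocon and signal peptidase genes 3 fell and 0 rose in edgeR (median 0.1), against 3.86% and 3.55% of all genes. An unadjusted p under 0.05 was found for 8, against 22.2%. DESeq2 called 7, against 15.8% of all genes. They were these 3 and, higher in KO, Spcs2, Spcs3, Srpr and Stt3a, whose edgeR log2 fold changes were 0.29, 0.46, 0.29 and 0.33 (adjusted p from 0.0606 to 0.157). Every KO library was above every WT library for 10 of the 34 genes and below for 3, against 14.6% and 15.4% of all genes. The 3 that fell were Srp54b, Srp54a and Srp54c, near-identical copies of the gene for the targeting subunit of the signal recognition particle. How reads were divided between the copies is uncertain, but their sum was 346 ± 8.07 CPM over WT libraries and 175 ± 4.39 over KO libraries. Srp54b fell by 1.27 on the log2 scale (adjusted p = 0.00132), and its call held with each library left out, whereas those of Srp54a and Srp54c were lost without WT 2 (0.0641 and 0.059), without WT 3 (0.0949 and 0.0508), without KO 2 (0.0574 and 0.0589) and, for Srp54a, without KO 3 (0.0568). Of 24 genes of the COPII coat and ER export 1 rose and 1 fell in edgeR (median -0.2), against 3.55% and 3.86% of all genes. An unadjusted p under 0.05 was found for 9, against 22.2%. Every KO library was below every WT library for 9 of the 24 genes and above for 2, against 15.4% and 14.6%. DESeq2 called 4, against 15.8% of all genes, with Preb higher and Sec31a lower in KO beside the genes that edgeR called. Sec23a, a coat subunit needed for collagen export, fell by 0.78 on the log2 scale and Sar1b, a GTPase that starts coat assembly, rose by 0.57 (adjusted p = 0.0271 for each). Both calls were lost without WT 2 (adjusted p = 0.112 and 0.113), WT 3 (0.11 and 0.106), KO 2 (0.118 and 0.106) or KO 3 (0.12 and 0.112).

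**Figure D4:**
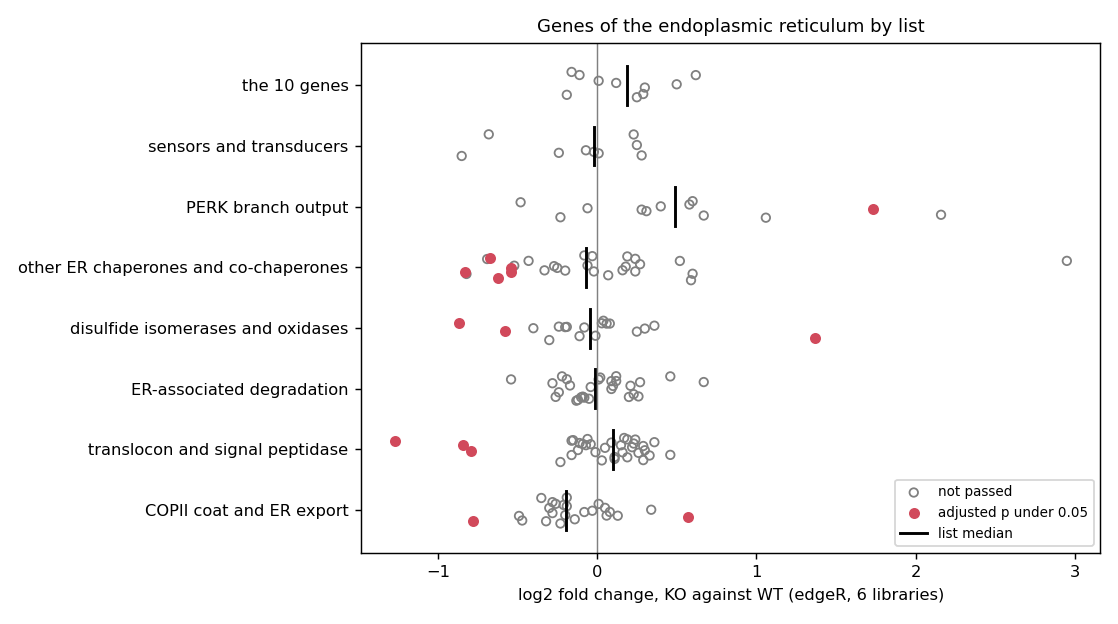
log2 fold change (KO against WT, edgeR, 6 libraries) of each tested gene in the lists of ER genes; filled points passed an adjusted p of 0.05, open points did not, and the black line is the median of the list. Among the 10 genes 0 points are filled, and among the other ER chaperones the 5 filled points are all below 0.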

How the data were processed

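Libraries were made with a strand-keeping kit, per the labels' protocols. The authors deposited raw read counts by gene symbol; how reads were assigned to genes, with which annotation and strand setting, is not given in the sources used here. Trim Galore 0.6.6 and HISAT2 2.2.1 appear in the submitters' processing notes, together with a human build that cannot belong to mouse symbols, so positions and exon lengths were taken from GENCODE M21 (GRCm38), which held 92.9% of the symbols.

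The main test was the robust quasi-likelihood fit of edgeR 4.0.16 (R 4.3.3) on 15223 genes kept by filterByExpr, with TMM factors, Benjamini-Hochberg adjustment and a threshold of 0.05. Intervals (95%) are the log2 fold change ± its SE times the t quantile. Centred profiles use log2 CPM with a prior count of 2.

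Members and lists were chosen with earlier results of these data known. Named besides the members are up to 5 called genes of each ER list with a mean of at least 1 CPM (or up to 3 with the lowest p) and the 8 genes nearest in profile, of which some are printed. Ern1, Eif2ak3, Ddit3, P4hb and the list genes that only DESeq2 called, with Asns, were named after their values were seen, and the genes with an ERSE because of that element. DESeq2 1.42.0, limma-voom (limma 3.58.1), 3 other scalings, 2 other filters, a threshold of 1.5-fold in the test itself, a block for the replicate number and leaving out libraries served as alternatives. On simulated counts over 14827 genes, for KO against WT, 33 of 100 genes with a 2-fold change and 80 of 100 with a 4-fold change were found by edgeR, and 6 of 119 calls were false. No other genes were changed, so far fewer could be called than in the data. The changed genes were drawn without regard to the level of the members, and each library was drawn independently. These shares are thus not those of the members.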

Additional observations from a re-analysis of the deposited data

How the results depend on the processing

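The count of all genes called, 1127 as reported, was 2406 with DESeq2, 396 against a fold of 1.5 and 7408 without WT 1 and KO 1 together, and ranged from 332 to 1216 with 1 library left out. The count of members called, 0 as reported, was 1 with upper-quartile factors, 1 with library totals and 1 with DESeq2 (Sdf2l1 each time), 6 without WT 1 and KO 1 together, and 0 to 1 with 1 library left out. With 1 library left out the log2 fold change of Hsp90b1 ranged from -0.05 to 0.14, with the opposite sign without WT 2 (-0.03), without KO 2 (-0.05) and without KO 3 (-0.05), and that of Calr from -0.2 to 0.05, with the opposite sign without KO 1 (0.05) and also without WT 1 and KO 1 together (0.08). With the replicate number as a block 8 genes were called, among them 0 members and 0 of the 14 named genes outside the members that passed as reported (adjusted p from 0.0717 to 0.301). Same-numbered libraries did not deviate together (correlations of -0.51, -0.31 and -0.22 for numbers 1 to 3). As a description across genes, which are not independent, this cannot decide whether the numbers pair the samples. Of these 14 genes, 3 (Atf3, Pdia5 and Srp54b) passed with each library left out. The cause of these changes was not tested. On simulated counts 33 of 100 genes with a 2-fold change were found, so a gene that did not pass may still differ. That share comes from the settings of the simulation and is not a measure for the members.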

Other observations

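Hyou1, a large chaperone of the ER lumen that helps BiP exchange its nucleotide, was picked after its values were seen. It was at 228, 142 and 148 CPM in WT and 154, 313 and 314 CPM in KO, with a log2 fold change of 0.59 (95% interval -0.16 to 1.34, adjusted p = 0.338 in edgeR). KO 2 and KO 3 were the highest libraries and KO 1 lay within the WT range, with a difference of -0.57 within number 1 and 1.11 within numbers 2 and 3. Dnajc3, an ER J-protein gene with an ERSE in its window, was at 115, 97.5 and 105 CPM in WT and 117, 171 and 166 CPM in KO (adjusted p = 0.124).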
